A study of Mus musculus with 24 samples.

Results

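The genes of antigen presentation by major histocompatibility complex (MHC) class I were examined in adipose tissue RNA of 24 mice. They are H2-K1, H2-D1, H2-T23 and H2-Q4, which encode heavy chains, B2m, Tap1, Tap2, Tapbp and Nlrc5, and they make up 9 of the 54232 genes in the count table, found by symbol in the GENCODE annotation of GRCm38. All 9 passed the filter on low counts. The list was chosen by a reader of earlier results of these data, with the fitted changes in PNx against Control in view, so for that comparison the values are a description and carry no test.

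Male C57BL6 mice, 10 weeks old according to the series description, underwent either partial nephrectomy (PNx), a surgical model of renal failure, or a sham operation. On the day of surgery every mouse also received lentivirus into the peritoneal cavity, in which the promoter of the adipocyte gene adiponectin controlled GFP or NaKtide, a peptide from the α1 subunit of the Na,K-ATPase that acts on the kinase Src. Control mice were sham-operated and carried GFP, NaKtide mice were sham-operated and carried the peptide, PNx mice carried GFP after nephrectomy, and PNx+NaKtide mice carried the peptide after nephrectomy. Each group held 6 libraries. The transgene was meant for adipocytes while the RNA came from the whole tissue, and all mice, the Control mice included, carried the virus.

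MHC class I molecules display peptides from inside the cell to CD8 T cells and natural killer cells, and nearly all nucleated cells, adipocytes included, make them. A heavy chain pairs with β2-microglobulin in the endoplasmic reticulum, where the Tap1 and Tap2 subunits of the peptide transporter deliver peptides and tapasin, the product of Tapbp, holds the empty heavy chain close to the transporter. Transcription of these genes is raised by interferons and NF-κB and by the transactivator Nlrc5, which acts with RFX factors on a shared promoter module.

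Promoter sequences are shown because that module lies upstream of these genes. RefSeq entries (table of GRCm38.p6) were found for 7 of the 9 genes, not for Tap2 and Nlrc5. Of 16 letter patterns searched on both strands in the 250 bases before each start, 5 are shown. They were chosen after their matches in these promoters had been seen, and a match is only a description. GGGANTNCC, a κB-like pattern, was held by H2-K1, H2-D1 and H2-Q4 and by 3.36% of the 32817 promoters of the same length. TTTCACTTC, part of an interferon-response-like element, was held by the same 3 genes and by 0.402% of all promoters. AAANNGAAA was held by H2-T23 and B2m and by 9.37% of all promoters. TGACG, the core letters of an X2-like box, was held by H2-K1, H2-D1, H2-Q4, B2m and Tap1 and by 17.7% of all promoters. CCAAT, or ATTGG on the other strand, was held by all 7 genes and by 33.8% of all promoters. TGACG began 41, 101 and 78 bases before the start in H2-K1, H2-D1 and B2m, ahead of ATTGG at 16, 76 and 53. In H2-Q4 it began at 73, between ATTGG at 79 and CCAAT at 55, and in Tap1 at 86, after CCAAT at 222. The letters in H2-Q4 and Tap1 were thus placed differently and may not mark such a box. The promoters of H2-K1, H2-Q4 and B2m are printed because 2 of them hold the κB-like and interferon-like pair and the third belongs to the light chain. Capitals mark the matches of the 5 patterns, which did not overlap one another, and the letters run 5′ to 3′ on the strand of the gene. H2-K1 lies at chr17:34000348-34000597 on the minus strand, H2-Q4 at chr17:35379367-35379616 on the plus strand, within the exon of the opposite gene Gm11131, and B2m at chr2:122147437-122147686 on the plus strand.
H2-K1: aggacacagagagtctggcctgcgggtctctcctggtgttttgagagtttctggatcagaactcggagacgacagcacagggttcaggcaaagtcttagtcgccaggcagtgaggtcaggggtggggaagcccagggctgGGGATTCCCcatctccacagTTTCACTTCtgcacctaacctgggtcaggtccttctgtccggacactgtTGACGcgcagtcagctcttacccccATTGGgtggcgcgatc
H2-Q4: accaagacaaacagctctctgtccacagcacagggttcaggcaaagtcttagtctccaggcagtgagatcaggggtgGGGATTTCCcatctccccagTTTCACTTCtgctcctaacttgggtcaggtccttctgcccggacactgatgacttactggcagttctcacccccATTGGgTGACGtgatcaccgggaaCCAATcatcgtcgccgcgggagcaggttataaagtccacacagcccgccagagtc
B2m: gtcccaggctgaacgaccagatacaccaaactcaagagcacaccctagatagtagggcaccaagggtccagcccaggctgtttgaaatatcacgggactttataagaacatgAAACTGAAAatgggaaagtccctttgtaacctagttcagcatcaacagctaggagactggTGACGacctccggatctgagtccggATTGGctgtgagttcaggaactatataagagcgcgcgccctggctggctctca
In H2-K1 the κB-like match began 110 bases and the interferon-like match 90 bases before the start, in H2-D1 170 and 150 bases, and in H2-Q4 173 and 153 bases. The H2-D1 start of RefSeq lay 364 bases inside the GENCODE gene, and its window is not printed.

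Total counts per library ranged from 679250 to 2979505, and a count of 0 allowed up to 0.739 to 5.91 CPM (counts over the library size after TMM scaling), a limit that covers counting error only. The 9 genes summed to between 84 counts (Nlrc5) and 13840 counts (Tapbp) over all libraries. The replicates are 1 library per mouse, so p-values measure the spread between these libraries. Some libraries stood apart in markers of cell types and organs, so results are also given without them. Summed testis germ cell markers (11 genes) were 1110 to 1520 CPM in PNx replicates 1, 2 and 3 and amounted to 363 CPM for PNx replicate 6, 10.3 CPM for NaKtide replicate 6 and 39.4 to 1010 CPM in the other 19 libraries. Summed adipocyte markers (13 of 13 genes measured) reached 6920 CPM for PNx replicate 6 and 5180 CPM for NaKtide replicate 6, and lay between 108 and 1120 CPM in the other 22 libraries. Epididymis markers (10 of 11 genes) summed to 16.8 to 1870 CPM, so counts were assigned in every library to genes that mark organs other than adipose tissue.

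The strand of the counts limits every level given here. The libraries were made with a stranded kit, and the sources used here do not give the strand setting of the counting step. The only mitochondrial mRNA gene of the minus strand, mt-Nd6, had 403137 counts per kb beside 5968 counts per kb for the 12 mRNA genes of the plus strand, which are ordinarily the more abundant. The ratio was 67.6 over all libraries and 21.0 to 194 in single libraries. Genes with an annotated gene opposite to their exons were 16.8% of genes and held 79.9% of counts. Mitochondrial reads were thus counted mostly on the strand opposite to the usual transcript, as counting a stranded library with the opposite setting would give. The values below, marker sums included, are therefore counts assigned to a gene, which may hold few reads of its own transcript.

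Per kilobase of exon, and with that limit on any order, assigned counts of Tapbp were highest, with 90.6 ± 23.5 CPM per kb (SD, n = 24), and exceeded H2-D1, the next in order, in 22 of 24 libraries. H2-D1 (30.2 ± 21.9 CPM per kb), B2m (29.0 ± 22.1 CPM per kb) and H2-K1 (27.0 ± 15.1 CPM per kb) could not be ordered, since H2-D1 exceeded B2m in 12 and B2m exceeded H2-K1 in 13 of 24 libraries. H2-K1 exceeded H2-Q4 in 24 of 24 libraries. H2-Q4 (4.12 ± 5.69 CPM per kb), Tap2 (3.74 ± 2.13 CPM per kb) and H2-T23 (2.73 ± 2.21 CPM per kb) overlapped widely, with H2-Q4 above Tap2 in 10 libraries. Tap1 averaged 0.994 ± 0.61 CPM per kb and Nlrc5 averaged 0.184 ± 0.308 CPM per kb, with 0 counts of Nlrc5 in 9 of 24 libraries. Counts above 0 were assigned to the 4 heavy chains, B2m, Tap2 and Tapbp in every library.

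The main observation was within the PNx group. Its mean hid libraries on both sides of the Control range. PNx replicates 1, 2 and 3 held 8, 7 and 7 of the 9 genes below the lowest Control library, against 28.9%, 28.4% and 25.8% of all genes tested. PNx replicate 6 held 8 of the 9 genes above the highest Control library, against 32.9% of all genes tested, and for each of those 8 it was the highest of all 24 libraries. In PNx replicates 1, 2 and 3, 0, 1 (Nlrc5) and 0 genes lay above the highest Control library, against 37.0%, 34.1% and 36.2% of all genes. PNx replicates 4 and 5 had 3 and 1 genes below the Control range (13.5% and 9.72% of all genes) and 1 and 0 above it (13.1% and 10.3%), and PNx replicate 6 had only Tapbp below it (19.5%). The summed level of the 8 genes other than Tapbp was 23.4, 39.6 and 57.5 CPM in PNx replicates 1, 2 and 3, 167 CPM in replicate 4, 232 CPM in replicate 5 and 772 CPM in replicate 6, beside 151 to 270 CPM in Control.

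**Figure D1:**
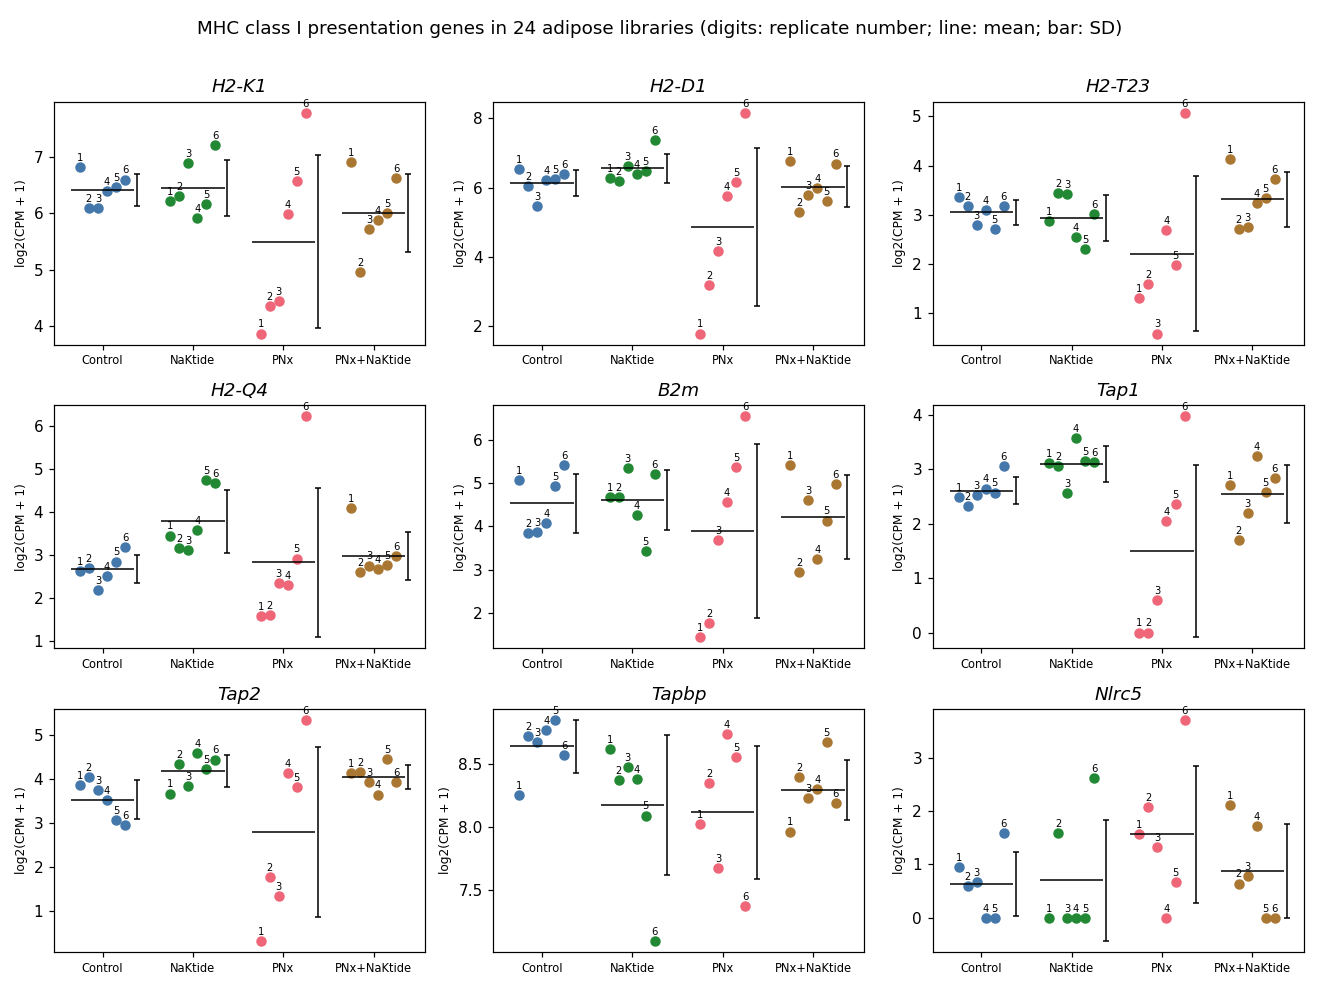
Level of each of the 9 genes as log2(CPM + 1) in every library, by group, with points numbered by replicate, a line for the mean and a bar for the SD of 6 libraries. PNx replicates 1, 2 and 3 sit at the bottom and replicate 6 at the top of most panels, while Tapbp is low in PNx replicate 6 and NaKtide replicate 6.

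Among the classical heavy chains, H2-K1 (ENSMUSG00000061232, GRCm38 chr17:33996017-34000347, minus strand) ranged from 67.5 to 112 CPM (median 85.2) in Control, 59.3 to 147 CPM (median 75.6) in NaKtide, 13.6 to 219 CPM (median 41.4) in PNx and 30.1 to 119 CPM (median 60.4) in PNx+NaKtide. Its 3 lowest levels of all 24 libraries, 13.6, 19.4 and 20.7 CPM, were those of PNx replicates 1, 2 and 3, and its highest, 219 CPM, was that of PNx replicate 6. H2-K1 averaged 71.4 ± 78.7 CPM (SD, n = 6) in PNx beside 85.6 ± 17.2 CPM (SD, n = 6) in Control, a fitted log2 fold change of -0.26 ± 0.5 (SE), and the groups overlapped.

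H2-D1 (ENSMUSG00000073411, chr17:35262730-35267499, plus strand), the other classical heavy chain of this strain, ranged from 43.2 to 91.4 CPM (median 74.1) in Control, 71.6 to 164 CPM (median 86.1) in NaKtide, 2.46 to 287 CPM (median 35.1) in PNx and 38.5 to 108 CPM (median 58.2) in PNx+NaKtide. In PNx its values were 2.46, 8.08, 16.9, 53.4, 70.7 and 287 CPM in replicates 1 to 6, a span of 117-fold within the group, where Control spanned 2.12-fold. The group means were nonetheless close, at 73.1 ± 108 CPM (SD, n = 6) after nephrectomy and 71.9 ± 16.7 CPM (SD, n = 6) in sham Control mice. The ratio of H2-K1 to H2-D1 counts was 5.5 (55 to 10 counts) in PNx replicate 1 and 2.4 (48 to 20 counts) in replicate 2, and lay between 0.71 and 1.56 in the other 22 libraries, so the pair was not in the usual proportion in those libraries, on few counts. Both genes are paralogs whose reads can be shared. Of the 50-base windows in their GENCODE transcripts, 9.63% for H2-K1 and 12.8% for H2-D1 also occurred in transcripts of other genes.

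The nonclassical chains were low. H2-T23 (ENSMUSG00000067212, chr17:36029773-36032855, minus strand) encodes Qa-1, a ligand of inhibitory receptors on natural killer cells, and ranged from 5.55 to 9.28 CPM (median 7.8) in Control, 3.94 to 9.95 CPM (median 6.71) in NaKtide, 0.505 to 32.8 CPM (median 2.49) in PNx and 5.57 to 16.6 CPM (median 8.8) in PNx+NaKtide. Of the 6 PNx libraries, 5 lay below the lowest Control library and replicate 6 above the highest. H2-Q4 (ENSMUSG00000035929, chr17:35379617-35385290, plus strand) ranged from 3.55 to 8.03 CPM (median 5.3) in Control, 7.68 to 25.6 CPM (median 10.4) in NaKtide, 1.97 to 74 CPM (median 3.98) in PNx and 5.02 to 16.1 CPM (median 5.77) in PNx+NaKtide. Its PNx mean of 15.4 ± 28.7 CPM (SD, n = 6) rested on replicate 6 at 74.0 CPM, as the other 5 libraries held 1.97 to 6.53 CPM, and without that library the log2 fold change from Control went from 1.48 to -0.60. H2-Q4 had the largest share of windows found in other genes, 21.8%, and H2-T23 had 13.6%, so their counts are uncertain between paralogs.

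B2m (ENSMUSG00000060802, chr2:122147686-122153083, plus strand), the light chain common to all class I molecules, shared no 50-base window with another gene and had no gene annotated opposite to it. It ranged from 13.5 to 41.5 CPM (median 22.7) in Control, 9.84 to 39.8 CPM (median 24.7) in NaKtide, 1.72 to 92.5 CPM (median 17.3) in PNx and 6.69 to 41.5 CPM (median 20.1) in PNx+NaKtide. PNx replicates 1 and 2 held 1.72 and 2.42 CPM (7 and 6 counts) and replicate 6 held 92.5 CPM, the lowest and highest levels of the 24 libraries, so the spread of the heavy chains was also seen in a gene with no shared window.

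Of the transporter subunits, Tap1 (ENSMUSG00000037321, chr17:34187553-34197225, plus strand) ranged from 4 to 7.36 CPM (median 4.83) in Control, 4.89 to 10.9 CPM (median 7.71) in NaKtide, 0 to 14.7 CPM (median 1.82) in PNx and 2.23 to 8.44 CPM (median 5.26) in PNx+NaKtide. No read of Tap1 was counted in PNx replicates 1 and 2, which allows up to 0.739 and 1.21 CPM, while PNx replicate 6 held 14.7 CPM. Tap2 (ENSMUSG00000024339, chr17:34203527-34216321, plus strand) ranged from 6.69 to 15.5 CPM (median 11.5) in Control, 11.7 to 23 CPM (median 18.5) in NaKtide, 0.246 to 39.6 CPM (median 7.74) in PNx and 11.5 to 20.8 CPM (median 15.4) in PNx+NaKtide. It held 1, 6 and 6 counts in PNx replicates 1, 2 and 3 and 105 counts in replicate 6. Both subunits were thus lowest in PNx replicates 1, 2 and 3 and highest in replicate 6, as the classical heavy chains were.

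Tapbp (ENSMUSG00000024308, chr17:33915899-33929292, plus strand) did not follow that order. It ranged from 305 to 461 CPM (median 416) in Control, 136 to 392 CPM (median 332) in NaKtide, 165 to 427 CPM (median 292) in PNx and 249 to 409 CPM (median 307) in PNx+NaKtide. PNx replicate 6, the highest library for the other 8 genes, held 165 CPM of Tapbp, and the lowest level of the 24 libraries was 136 CPM, that of NaKtide replicate 6. The Spearman correlation of Tapbp with the mean of the 9 scaled genes was -0.19 over 24 libraries that share depth and composition. It was 0.91 for H2-D1, 0.90 for H2-K1, 0.86 for B2m and 0.84 for H2-Q4. H2-T23 and Tap1 were at 0.71 each, Tap2 at 0.47 and Nlrc5 at 0.22. Each gene is itself part of that mean, which raises its correlation, so these values are only a description. Nlrc5 (ENSMUSG00000074151, chr8:94434356-94527272, plus strand) ranged from 0 to 2.01 CPM (median 0.546) in Control, 0 to 5.17 CPM (median 0) in NaKtide, 0 to 12.1 CPM (median 1.74) in PNx and 0 to 3.32 CPM (median 0.636) in PNx+NaKtide, on 84 counts in all. PNx replicate 6 held 32 of these counts, and PNx replicates 1, 2 and 3 held 8, 8 and 6, beside 0 to 3 in each Control library. These counts are too few to give the level of the Nlrc5 transcript, and its part in the class I levels was not tested.

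**Figure D2:**
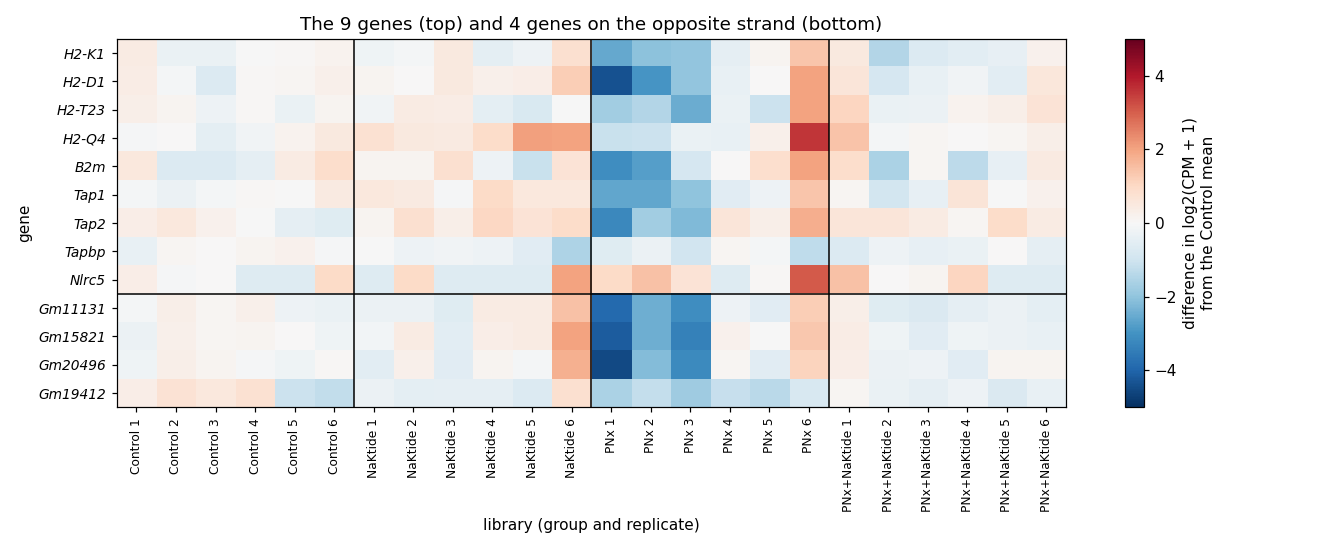
Difference in log2(CPM + 1) from the Control mean for the 9 genes and 4 opposite-strand genes (rows) in 24 libraries (columns), blue for lower and red for higher. PNx replicates 1, 2 and 3 are blue for the heavy chains, B2m, Tap1 and Tap2, PNx replicate 6 is red for all of the 9 genes but Tapbp, and NaKtide replicate 6 and PNx+NaKtide replicate 1 are red for several.

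Markers of several cell types moved with these libraries, and their part in the class I levels was not tested. Fewer cells of a type and less RNA per cell cannot be told apart in bulk tissue. In PNx replicates 1, 2 and 3 the summed leukocyte markers (8 of 8 genes) were 13.8 to 37.3 CPM, beside 64.0 to 161 CPM in Control, and macrophage markers (8 of 8 genes) were 169 to 277 CPM, beside 319 to 447 CPM. Endothelial markers (8 of 8 genes) summed to 482 CPM for PNx replicate 6, to 83.4 CPM for NaKtide replicate 6 and to 10.5 to 13.8 CPM in PNx replicates 1, 2 and 3, beside 12.3 to 29.4 CPM in Control. Those of T and natural killer cells (5 of 10 genes above the filter) were 12.9 to 21.8 CPM in PNx replicates 1, 2 and 3 and at most 3.71 CPM in Control, and B cell markers (4 of 5 genes) were 7.57 to 14.8 CPM beside 1.75 to 4.32 CPM. Fibroblast markers (6 of 6 genes) and erythrocyte markers (5 of 5 genes) were highest in PNx replicate 6, at 400 and 1630 CPM. In Control they were 24.9 to 82.2 and 35.8 to 119 CPM. In PNx replicates 1, 2 and 3 they were lower, at 7.27 to 14.4 and 4.85 to 12.1 CPM. Mesothelial markers (6 of 6 genes) were 6.9 to 13.1 CPM in those 3 libraries, beside 26.0 to 52.0 CPM in Control. Skeletal muscle markers (6 of 6 genes) were 4240 CPM in NaKtide replicate 6 and at most 107 CPM in the 23 others. Adipocyte, skeletal muscle and epididymis markers also lay below the Control range in PNx replicates 1, 2 and 3. They were 253 to 273, 9.12 to 40.6 and 19.5 to 493 CPM. Control held 276 to 796, 53.8 to 75.7 and 615 to 1830 CPM. The libraries low in class I were thus low in most marker lists, general leukocyte and macrophage markers included. They were high in germ cell, T and natural killer cell and B cell markers. The library highest in class I was highest in adipocyte, endothelial, fibroblast and erythrocyte markers.

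In PNx against Control, which asks what renal failure changed, edgeR's quasi-likelihood test called 0.0766% of the 26116 genes tested at a Benjamini-Hochberg adjusted p under 0.1, and 25.4% reached an unadjusted p under 0.05. Calls of the 9 genes are not read here, since this comparison was in view when they were chosen. As a description, the median log2 fold change was 0.03 over the 9 genes and 0.36 over all genes tested, with 6 higher (60.7% of all genes) and 3 lower (39.3%). The ranges of the 2 groups overlapped for all 9 genes, as for all but 0.486% of those tested. Without PNx replicate 6 the median went to -0.80, and without replicates 1, 2 and 3 together it went to 0.82. Scaling by DESeq2 size factors moved the median of all genes from 0.36 to 0.76 and that of the 9 genes to 0.18.

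**Figure D3:**
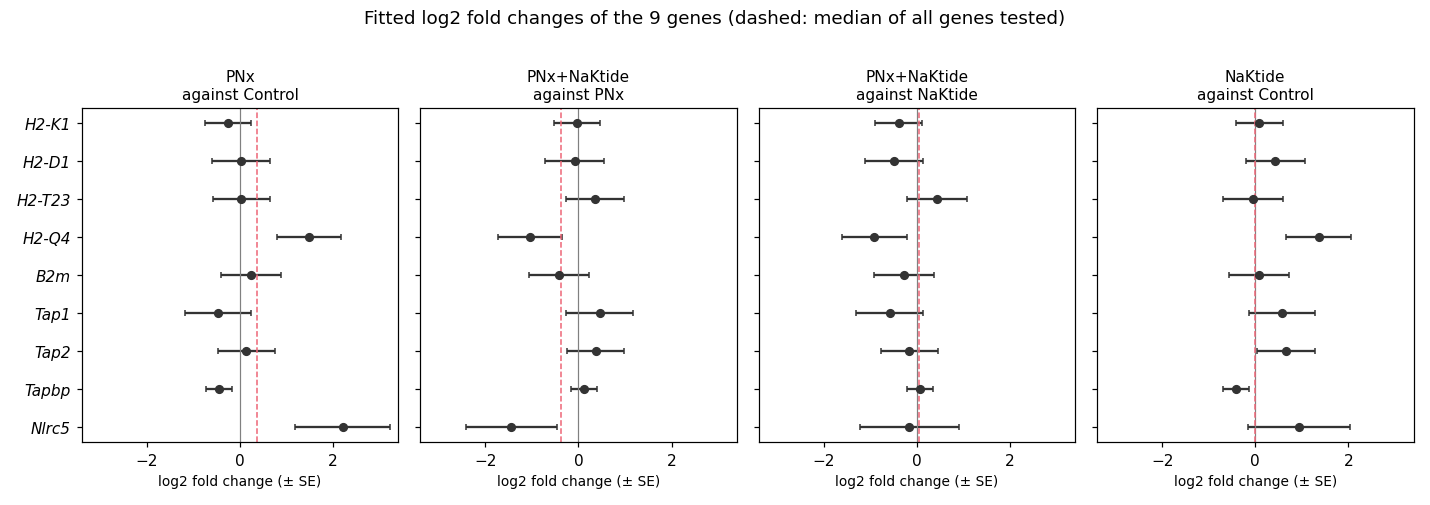
Fitted log2 fold change ± SE of each gene in 4 comparisons of 6 with 6 libraries, with 0 as a solid line and the median of all genes tested dashed. Most bars cross 0, and H2-Q4 and Nlrc5 lie farthest from it in PNx against Control, at 1.48 and 2.21.

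For NaKtide after nephrectomy (PNx+NaKtide against PNx, which shares the 6 PNx libraries with the comparison above), edgeR called 0 of 9 genes and 0.0% of all genes tested, and at an unadjusted p under 0.05 it took 0 of 9 beside 12.7% of all. DESeq2 called 0 of the 9, beside 5.8% of all genes tested. The lowest edgeR adjusted p was 0.461, for H2-Q4, at 7.46 ± 4.25 CPM in PNx+NaKtide and 15.4 ± 28.7 CPM in PNx. The spread was narrower with the peptide. H2-D1 spanned 2.82-fold within PNx+NaKtide and 117-fold within PNx, and B2m spanned 6.21-fold and 53.6-fold, a difference in spread that was not tested. H2-K1 (log2 fold change -0.03 ± 0.5) and H2-D1 (-0.08 ± 0.63) averaged close to PNx, and 4 of the 9 genes were higher (36.2% of all genes) and 5 lower (63.8%). The ranges overlapped for all 9. The fitted values depended on which PNx libraries were kept. Without PNx replicate 6, H2-K1, H2-D1 and H2-Q4 went to 0.75, 1.21 and 1.04. Then 5 of the 9 genes (17.1% of all genes), all higher, reached an unadjusted p under 0.05 in edgeR. Without PNx replicates 1, 2 and 3 together the direction was the opposite, with a median of -0.75 over the 9 genes. Then 3 of the 9 genes (15.2% of all genes), all lower, reached that p in edgeR. Both fits called 0 of the 9 at the adjusted threshold. PNx replicate 6 was the highest library for 8 of the 9 genes, and replicates 1, 2 and 3 were the lowest for most. Leaving them out largely fixed these directions in advance, so the 2 fits are no test of the 9 genes. limma voom, which weights libraries, called 7 of 9 higher, beside 42.4% of all genes tested.

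The effect of nephrectomy under the peptide (PNx+NaKtide against NaKtide) compared no library of PNx or Control, though the fit shares 1 estimate of the spread with them. Here edgeR called 0 of 9 genes and 0.0% of all genes tested, and at an unadjusted p under 0.05 it took 0 of 9 beside 4.09%. DESeq2 and voom also called 0 of the 9, beside 0.00766% and 0.0% of all genes tested. The fitted values were below 0 for 7 of the 9 genes (46.9% of all genes) and above 0 for 2 (52.7%), with a median log2 fold change of -0.28 beside 0.04 for all genes. H2-Q4 was at -0.91 ± 0.70 (adjusted p = 1.0 in edgeR), with 5 of 6 PNx+NaKtide libraries below the lowest NaKtide library, and H2-D1 was at -0.49 ± 0.63, with 4 of 6 below. The ranges overlapped for all 9 genes, as for all but 0.0881% of those tested, and no fold change passed the test. Within PNx+NaKtide, replicate 1 held 7 of the 9 genes above the Control range, all but Tap1 and Tapbp, beside 14.0% of all genes tested.

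In sham mice (NaKtide against Control, which shares the Control libraries with PNx against Control) edgeR called 0 of 9 genes and 0.0% of all genes tested, and at an unadjusted p under 0.05 it took 0 of 9 beside 3.95%. DESeq2 and voom called 0 of the 9, beside 0.0115% and 0.00766% of all genes tested. The fitted values were above 0 for 7 genes (49.4% of all genes) and below 0 for 2 (49.8%). H2-Q4 had the largest fitted difference, 14.4 ± 8.34 CPM beside 5.5 ± 1.52 CPM in Control, a log2 fold change of 1.36 ± 0.70 with 6 of 6 NaKtide libraries above the Control mean (edgeR unadjusted p = 0.0639, adjusted p = 1.0). Tap2 was 17.6 ± 4.36 CPM beside 11.0 ± 3.47 CPM, also above the Control mean in 6 of 6 libraries, and Tap1 was 7.73 ± 1.91 CPM beside 5.15 ± 1.16 CPM, above it in 5 of 6. Tapbp lay below the Control mean in 6 of 6 libraries, at -0.41 ± 0.28. None of these passed the test. NaKtide replicate 6 held 6 of the 9 genes above the Control range, beside 20.7% of all genes tested, and without it the median of the 9 genes went from 0.43 to -0.04.

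Genes annotated on the opposite strand are where this limit can be seen. In shared exons the reads of a gene and of its antisense partner cannot be told apart without that setting. Of the 9 genes, 5 share exon bases with a gene opposite to them and 4, H2-K1, H2-D1, H2-T23 and B2m, do not. Gm11131, opposite to 496 exon bases of H2-Q4, had 10387 counts, 21.9 times those of H2-Q4. Gm15821 and Gm20496, opposite to 533 and 165 exon bases of Tap2, had 9133 and 5762 counts, 16.4 and 10.3 times those of Tap2. Psmb9, an immunoproteasome subunit encoded head to head with Tap1, shared 212 bases and had 1.96 times its counts. The shared bases made up 15.9%, 44.0% and 24.9% of the exons of Gm11131, Gm15821 and Gm20496, and the rest lay outside the exons of H2-Q4 and Tap2. With the strand ratio given above, an unknown part of the counts assigned to these partners may be reads of H2-Q4 and Tap2. Their counts are not evidence of antisense RNA.

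These partners were low and high in the same PNx libraries as the genes opposite to them. Gm11131 was 17.5, 49.7 and 30.8 CPM in PNx replicates 1, 2 and 3, and reached 640 CPM for PNx replicate 6 and 769 CPM for NaKtide replicate 6, beside 220 to 338 CPM in Control. Gm15821 was 11.1, 38.4 and 19.9 CPM in PNx replicates 1, 2 and 3, and reached 545 CPM for PNx replicate 6 and 855 CPM for NaKtide replicate 6, beside 174 to 256 CPM in Control. The 4 genes with no partner were low and high in the same PNx libraries.

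**Figure D4:**
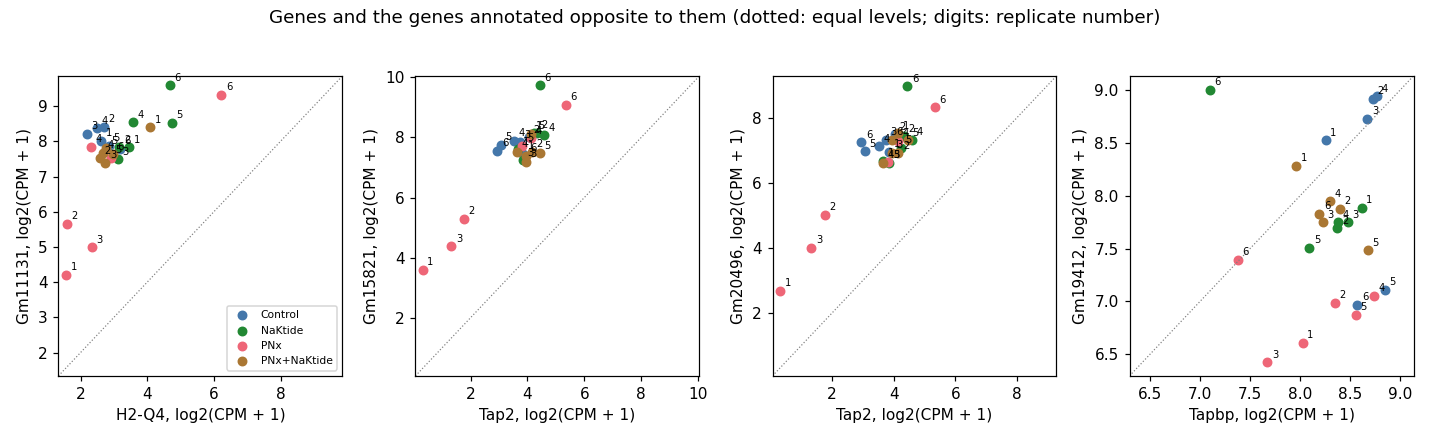
Level of H2-Q4, Tap2 and Tapbp (x axes) against the gene annotated opposite to each (y axes), as log2(CPM + 1), with points coloured by group and numbered by replicate and a dotted line where both are equal. The partners of H2-Q4 and Tap2 lie above the line in all 24 libraries, with PNx replicates 1, 2 and 3 at the lower left.

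Gm19412, opposite to 904 exon bases of Tapbp (85.3% of its own exons), differed from the rest. It was 84.8 to 167 CPM in PNx and 178 to 311 CPM in PNx+NaKtide, so the 2 groups did not overlap, as for 0.456% of the genes tested. Its log2 fold change was 0.97 ± 0.35, with 6 of 6 PNx+NaKtide libraries above every PNx library, but it did not pass the test (edgeR unadjusted p = 0.00935, adjusted p = 0.357). Its counts may likewise be reads of Tapbp or of its own transcript. Control libraries were 368 to 491 CPM in replicates 1 to 4 and 137 and 124 CPM in replicates 5 and 6, and these latter 2 were within the PNx range. Tapbp itself showed no such split, with 0 of 6 PNx+NaKtide libraries above the highest PNx library and a log2 fold change of 0.11 ± 0.28.

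The rest of the pathway was read from 7 lists of genes chosen with earlier results of these data known, and edgeR called 0 of their genes in all 4 comparisons. Of 12 other class I heavy chains tested, edgeR took 1 as higher and 2 as lower in PNx+NaKtide than in PNx at an unadjusted p under 0.05, beside 12.7% of all genes, and voom called 6, beside 42.4% of all genes. H2-T22, the most counted per length, was 1.23, 8.88 and 5.80 CPM in PNx replicates 1, 2 and 3 and 29.2 to 46.7 CPM in Control. It shared 1003 exon bases with an opposite gene. H2-T24 was 9.22 ± 3.60 CPM in PNx+NaKtide and 3.81 ± 2.12 CPM in PNx, a log2 fold change of 1.30 ± 0.52 (edgeR unadjusted p = 0.0181, adjusted p = 0.357).

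As sums, the genes of peptide loading and trimming and of the immunoproteasome, which makes peptides for class I, followed the heavy chains in PNx replicates 1 to 3. Their summed levels there were 152 to 276 CPM and 5.42 to 12.1 CPM, beside 444 to 711 CPM and 48.4 to 70.9 CPM in Control. Not every loading gene did so, as Pdia3 was 35.5, 27.5 and 56.8 CPM there beside 35.5 to 91.4 CPM in Control. In PNx replicate 6 the immunoproteasome genes summed to 199 CPM. The loading and trimming genes summed to 577 CPM in that library, within the Control range. Calr, the chaperone calreticulin, was 382 ± 134 CPM in PNx+NaKtide and 211 ± 147 CPM in PNx, a log2 fold change of 0.86 ± 0.41 (edgeR unadjusted p = 0.0476, adjusted p = 0.391). At an unadjusted p under 0.05, edgeR took 1 of 6 loading genes and 0 of 5 immunoproteasome genes in that comparison, beside 12.7% of all genes. DESeq2 called 0 of both lists, beside 5.8% of all genes, and voom called 4 of 6 and 4 of 5, beside 42.4% of all genes.

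Among 14 regulators of class I transcription, Rfxank, a subunit of the RFX complex, was 38.2, 92.5 and 51.2 CPM in PNx replicates 1, 2 and 3 beside 239 to 371 CPM in Control. Rfx5, another subunit of the same complex, went the other way, at 118, 151 and 91.6 CPM beside 43.2 to 75.1 CPM in Control. In PNx replicate 6, Rfxank was 148 CPM, below Control, and Rfx5 was 61.5 CPM, within Control. Irf1 and Ifngr1 were low in PNx replicates 1, 2 and 3, at 0.739 to 3.53 and 0.986 to 10.9 CPM. Control held 14.2 to 23.3 and 28.8 to 69.8 CPM of them. PNx replicate 6 held 52.5 CPM of Irf1, the highest of all libraries, and 68.3 CPM of Ifngr1. Rfxank and Rfx5 share 1341 and 1471 exon bases with opposite genes. Between PNx+NaKtide and PNx, Rfxank had a log2 fold change of 0.87 ± 0.39 and Rfx5 one of -0.89 ± 0.36 (edgeR adjusted p = 0.376 and 0.357).

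Of the 4 interferon-response genes with the most counts per length, 3 were low in the library with the highest class I levels, but the list as a whole was not. The 23 genes summed to 298 CPM in PNx replicate 6, within the 228 to 314 CPM of Control, and to 42.1 to 80.8 CPM in PNx replicates 1, 2 and 3. In PNx replicate 6, Isg15, a ubiquitin-like protein induced by interferon, was 3.4 CPM beside 26.5 to 55.5 CPM in Control, and Irf9 and Stat2, which carry the type I interferon signal, were 12.8 and 24.5 CPM beside 68.3 to 127 CPM and 61.7 to 88.2 CPM. Usp18, an interferon-induced protease, was 26.4 CPM there beside 15.8 to 25.5 CPM. In PNx replicates 1, 2 and 3 all 4 genes were low together with class I, as Isg15 was 0.739, 6.46 and 4.79 CPM. Of 23 interferon genes tested, edgeR took 0 as higher and 3 as lower in PNx+NaKtide than in PNx at an unadjusted p under 0.05, a share near the 12.7% of all genes. DESeq2 called 0 of the 23 and voom 14, beside 5.8% and 42.4% of all genes. In NaKtide against Control, Irf9 was 39.9 ± 22.1 CPM beside 92.3 ± 22.3 CPM, with ranges that did not overlap, as for 0.314% of the genes tested (edgeR unadjusted p = 0.103, adjusted p = 1.0).

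Class II genes, which serve dendritic cells, macrophages and B cells, and class I-like molecules such as the Fc receptor Fcgrt had their highest summed levels, 274 and 170 CPM, in PNx replicate 6. Cd74, the invariant chain, was 96.6 CPM there and 4.5 to 14.9 CPM in Control. Fcgrt was 88.3 CPM there and 2.00 to 7.43 CPM in Control. Of 7 class II and 5 class I-like genes tested, 0 reached an unadjusted p under 0.05 in PNx+NaKtide against PNx with edgeR, beside 12.7% of all genes. DESeq2 called 0 of them, beside 5.8% of all genes, and voom called 5 and 1, beside 42.4%. In PNx replicates 1, 2 and 3 the class II genes went different ways. H2-Ab1 was 16.5, 22.6 and 15.4 CPM, above the 2.37 to 11.4 CPM of Control. Cd74 was 0.493, 0.808 and 1.77 CPM, below Control. H2-Eb1 was 0.986, 3.23 and 3.78 CPM, below the 4.14 to 16.1 CPM of Control. H2-DMb1 was 1.48, 2.42 and 2.02 CPM beside 2.01 to 6.79 CPM. The class II sum was 21.4 to 32.3 CPM in these libraries, beside 24.3 to 54.9 CPM in Control.

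Outside these lists, the protein-coding genes whose levels ordered the 24 libraries most like the 9 genes together were Aldh2 (Spearman correlation 0.95), Arhgef1 and Srebf1 (0.94 each) and Slc1a5, Plekhg5, Tkt, Pmepa1 and Aes (0.93 each), of 8045 genes with a mean of at least 5 CPM. Without PNx replicates 1, 2 and 3 the correlations were 0.89 to 0.92 over 21 libraries. These are descriptions over libraries that share depth and composition.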

How the data were processed

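RNA sequencing of adipose tissue was performed in 24 mice (6 a group), with group and replicate as the labels give them. The authors trimmed paired reads with Trimmomatic 0.38, aligned them to GRCm38 with HISAT2 2.1.0 and counted them per gene with GenomicAlignments. The authors deposited raw counts per gene, which were used here, FPKM values, used for alternatives, and normalized values, not used here. Neither the strand setting nor the annotation release of this count was given in the sources used.

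The 9 genes and all gene lists were chosen with earlier results of these data known. Symbols, exons and strands came from GENCODE M21, and an overlap needed 1 shared exon base. Genes with more than 10 counts summed over 24 libraries were tested with edgeR 4.0.16 in R 4.3.3 (TMM, robust quasi-likelihood F-test, 1 fit of 4 group means), with Benjamini-Hochberg adjusted p under 0.1. The standard error is the absolute log2 fold change over the square root of F. For PNx against Control the values of the 9 genes are a description with no p, and counts of calls are given only to show how they move with the processing. All 9 genes are named. From each of 7 other lists the genes open to naming were the 4 with the highest mean count per exon kb, and those described were picked from them, as was Gm19412 from the opposite-strand genes, after their values were seen. Summed CPM of 12 marker lists were not tested. Alternatives were DESeq2 1.42.0 and its size factors, library size scaling, other filters, limma 3.58.1 voom with sample weights, limma on log2(FPKM + 1) and log2(FPKM + 0.1), the compared groups only, the replicate block, and leaving out libraries. Scripts were tested on simulated data. Within groups, every pair of libraries differed by more than sampling noise (lowest chi-square per degree of freedom 1.57).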

Additional observations from a re-analysis of the deposited data

Results flagged for a closer look

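Of 36 sets of 6 libraries (9 genes in 4 groups), 8 had an extreme library by Dixon's criterion, which flags about 1 in 20 single sets by chance. The 9 genes share the same libraries, so the sets are not independent and their number cannot be compared with that rate. In each the highest library stood apart from the next. In PNx replicate 6 these were H2-D1 at 287 CPM (next 70.7), H2-T23 at 32.8 CPM (next 5.5), H2-Q4 at 74.0 CPM (next 6.53), Tap1 at 14.7 CPM (next 4.16) and Nlrc5 at 12.1 CPM (next 3.23). H2-D1 stood apart at 164 CPM in NaKtide replicate 6 (next 98.4), H2-Q4 at 16.1 CPM in PNx+NaKtide replicate 1 (next 6.79) and Tap1 at 7.36 CPM in Control replicate 6 (next 5.25). The cause was not tested.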

How the results depend on the processing

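Depth limited Nlrc5, Tap1, H2-T23 and H2-Q4, which held 84 to 474 counts over all libraries. Alternatives were recomputed 1 choice at a time. For PNx against Control, which was in view when the genes were chosen, the number of the 9 genes called is no test of them. It was 0 in edgeR (0.0766% of all genes), 2 with DESeq2 size factors (33.3%), 1 with library size scaling (15.7%), 2 with DESeq2 (29.7%), 8 with limma voom and sample weights (63.5%), 2 without PNx replicate 6 and NaKtide replicate 6 together (21.8%), and 0 to 2 when 1 library was left out (2 without PNx replicate 4, 33.2%, or without PNx replicate 6, 14.8%). These calls went opposite ways. H2-Q4 and Nlrc5 were called higher with DESeq2, with its size factors and without PNx replicate 4. Library size scaling called H2-Q4 higher. Without PNx replicate 6, H2-T23 and Tap1 were called lower, as they were without both replicates 6. Of the 8 calls of voom, 1 was higher (Nlrc5) and the rest were lower. In PNx+NaKtide against PNx the number called was 7 with voom (42.4%) and 0 without any 1 library. It was 0 without any 1 library in PNx+NaKtide against NaKtide and in NaKtide against Control. The median log2 fold change of the 9 genes went to -1.88 with voom in PNx against Control and to 1.33 in PNx+NaKtide against PNx. In NaKtide against Control it went from 0.43 to 0.16 and 0.17 on log2(FPKM + 1) and log2(FPKM + 0.1), to -0.04 without PNx replicate 6 and NaKtide replicate 6 together, and to 0.09 over the genes with no opposite overlap. Leaving out 1 library moved the medians from -0.80 to 0.28 in PNx against Control, -0.25 to 1.04 in PNx+NaKtide against PNx, -0.60 to -0.16 in PNx+NaKtide against NaKtide and -0.04 to 0.51 in NaKtide against Control.

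Single genes changed sign, and not only those near 0. In the main fit of PNx+NaKtide against PNx, H2-Q4 was -1.04 and B2m was -0.42. Nlrc5 was 0.94 in the main fit of NaKtide against Control. In PNx+NaKtide against PNx, Tapbp was -0.21 with DESeq2 size factors, -0.07 with library size scaling, -0.06 with filterByExpr, -0.21 with DESeq2, -0.05 in the compared groups only, -0.15 on both FPKM scales, -0.02 without PNx replicates 1, 2 and 3 together, -0.01 without PNx replicate 6 and NaKtide replicate 6 together and -0.01 to 0.20 without 1 library. H2-K1 was 1.33 with voom, 0.08 in the compared groups only, 0.20 and 0.21 on the FPKM scales, 0.75 without PNx replicate 6 and NaKtide replicate 6 together and -0.25 to 0.75 without 1 library. H2-D1 was 2.37 with voom, 0.11 in the compared groups only, 0.79 and 0.92 on the FPKM scales, 1.21 without both replicates 6 and -0.34 to 1.21 without 1 library. H2-Q4 was 0.96 with voom, 1.05 without both replicates 6 and -1.42 to 1.04 without 1 library. B2m was 1.28 with voom, 0.08 and 0.13 on the FPKM scales, 0.46 without both replicates 6 and -0.73 to 0.45 without 1 library. H2-T23, Tap1 and Tap2 were -0.42, -0.47 and -0.48 without PNx replicates 1, 2 and 3 together. In PNx+NaKtide against NaKtide, Tapbp was -0.08 with voom, -0.09 without both replicates 6 and -0.09 to 0.15 without 1 library, and Nlrc5 was 0.71 with voom, 0.17 on log2(FPKM + 0.1), 1.24 without both replicates 6 and -0.85 to 1.24 without 1 library. In NaKtide against Control, H2-T23 was 0.02 with DESeq2 size factors and with DESeq2, 0.03 with voom and -0.17 to 0.04 without 1 library, H2-K1 was -0.03 with voom, -0.10 without both replicates 6 and -0.10 to 0.19 without 1 library, B2m was -0.04 without both replicates 6 and -0.09 to 0.30 without 1 library, and Nlrc5 was -0.46 without both replicates 6 and -0.47 to 1.5 without 1 library. The cause of these changes was not tested.

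The replicate numbers did not pair the libraries, as same-numbered libraries correlated by -0.62 to 0.76 and 2 to 4 of 6 pairs exceeded 0.1. With the replicate block, 0 of the 9 genes were called in each comparison, and in PNx+NaKtide against PNx H2-K1, H2-D1 and H2-Q4 were 0.26, 0.60 and 0.05, and in PNx+NaKtide against NaKtide Nlrc5 was 0.71.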
